A study of Homo sapiens with 10 samples.

Results

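The p53 pathway genes described here are 30 established transcriptional targets and regulators of the tumour suppressor p53, chosen by name. Each of the 30 symbols was found as a single row in all 10 expression tables, among 36545 genes in the tables of the first experiment and 22609 in those of the second. The libraries came from KYSE450, KYSE180 and KYSE30, established lines of human esophageal squamous cell carcinoma at passages given as 5 to 10. In the first experiment each line gave 1 library after 72 h of interferon-beta (IFN-β, a type I interferon) at 1000 IU/ml and 1 library from cells that received PBS, called untreated. In the second experiment KYSE180 and KYSE30 each gave 1 library with IRF1-AS, a non-coding transcript opposite the interferon regulatory factor gene IRF1, knocked down by a lentivirus, and 1 library with the vector control, and the virus had been packaged in HEK293T cells. The sources do not say whether the knockdown cells were a pool or a clone. Each line therefore has 1 library per condition, the lines serve as the replicates, and p-values measure the spread between lines, not between cultures.

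p53 is a transcription factor that is stabilised by DNA damage and other stress and switches on genes for growth arrest, repair, metabolic adjustment and cell death. Its level is held down by MDM2 and MDM4, and MDM2 is itself a p53 target, which closes a feedback loop. Several targets of p53, GDF15, SESN2 and GADD45A among them, are also induced through the ATF4 branch of the stress response without p53.

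The promoters of AEN, FDXR and PLK2 are shown because they were the members whose RefSeq promoter window held a p53 half-site, and because each of these genes differed between the lines in the results that follow. The windows run from 250 bases before to 50 bases after the annotated start on GRCh38.p14, are written 5′ to 3′ on the gene's strand, and carry the match in capitals.
AEN, chr15:88621090-88621389, plus strand: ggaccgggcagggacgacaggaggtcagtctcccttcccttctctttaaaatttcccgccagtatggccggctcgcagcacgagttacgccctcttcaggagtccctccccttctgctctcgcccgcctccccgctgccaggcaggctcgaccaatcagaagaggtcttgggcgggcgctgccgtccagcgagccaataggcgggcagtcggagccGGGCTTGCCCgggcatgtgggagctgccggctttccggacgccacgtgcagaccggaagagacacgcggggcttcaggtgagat
FDXR, chr17:74872945-74873244, minus strand: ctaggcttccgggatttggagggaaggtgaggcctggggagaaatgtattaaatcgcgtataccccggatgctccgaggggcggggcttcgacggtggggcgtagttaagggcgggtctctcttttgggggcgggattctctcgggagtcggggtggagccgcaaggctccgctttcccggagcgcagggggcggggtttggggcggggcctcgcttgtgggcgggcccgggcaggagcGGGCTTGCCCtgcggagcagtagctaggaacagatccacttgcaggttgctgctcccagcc
PLK2, chr5:58460037-58460336, minus strand: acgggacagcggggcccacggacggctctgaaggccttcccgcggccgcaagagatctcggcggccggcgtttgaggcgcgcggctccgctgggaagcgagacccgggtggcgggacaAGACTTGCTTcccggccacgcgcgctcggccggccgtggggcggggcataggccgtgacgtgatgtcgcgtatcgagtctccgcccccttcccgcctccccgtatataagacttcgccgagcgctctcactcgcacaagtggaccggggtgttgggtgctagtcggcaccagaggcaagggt
The match was GGGCTTGCCC in both AEN, starting 34 bases before the annotated start, and FDXR, starting 11 bases before it, and AGACTTGCTT in PLK2, starting 132 bases before it. Windows were available for 26 of the 30 members, and 3 of the 26 held the motif on either strand, against 6.54% of all 27305 promoters in the table. PHLDA3, TP53INP1, RRM2B and GADD45A had no window, so their promoters were not searched for any motif. The core of the interferon-stimulated response element, GAAA and GAAA with any 2 bases between them, was in 0 of the 26 windows and in 3.65% of all promoters. The gamma-activated site TTCNNNGAA was likewise in 0 of the 26 and in 7.88% of all promoters, and the CHOP and ATF composite core TGATGCAA in 0 of the 26 and in 0.923% of all. All motifs were searched on both strands, and these counts describe letters in a short window only.

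The libraries are given as FPKM without read counts, so their depth is unknown, and between 11644 and 12698 genes reached 1 FPKM in each. All 8 squamous and epithelial markers reached 1 FPKM in every library, but KYSE30 stood apart. Their summed level was 232 FPKM in IFN-β-treated and 224 FPKM in untreated KYSE30, against 3822 to 8247 FPKM in the KYSE450 and KYSE180 libraries of that experiment. The basal keratin gene KRT5 had 1.37 and 2.91 FPKM in IFN-β-treated and untreated KYSE30 of the first experiment, and 228 and 117 FPKM in knockdown and vector control KYSE30 of the second. The 8 markers summed to 633 and 664 FPKM in knockdown and vector control KYSE30, against 7757 and 8808 FPKM in knockdown and vector control KYSE180. KYSE30 was thus the lower line within each experiment. Its deposited KRT5 level also differed between the experiments. These were normalised separately, and how much of that difference this explains was not tested. Its part in the line differences below was not tested either. Markers of leukocytes summed to at most 0.88 FPKM, those of endothelium summed to at most 1.18 FPKM, and PTPRC was at or below 0.09 FPKM. Fibroblast markers summed to 0.34 to 1.36 FPKM in the first experiment and 1.73 to 5.42 FPKM in the second, where COL1A1 made up most of them. Of 10 interferon-stimulated genes 7 were called higher after IFN-β. The antisense gene of IRF1 (C5orf56 in the tables), the knockdown target, had 0.948 and 1.08 FPKM in knockdown and vector control KYSE180 and 3.04 and 6.86 FPKM in knockdown and vector control KYSE30, a fitted log2 difference of -0.55 ± 0.31 (SE; adjusted p = 0.812, limma), so the knockdown of this RNA was not detectable as a difference across both lines.

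**Figure D1:**
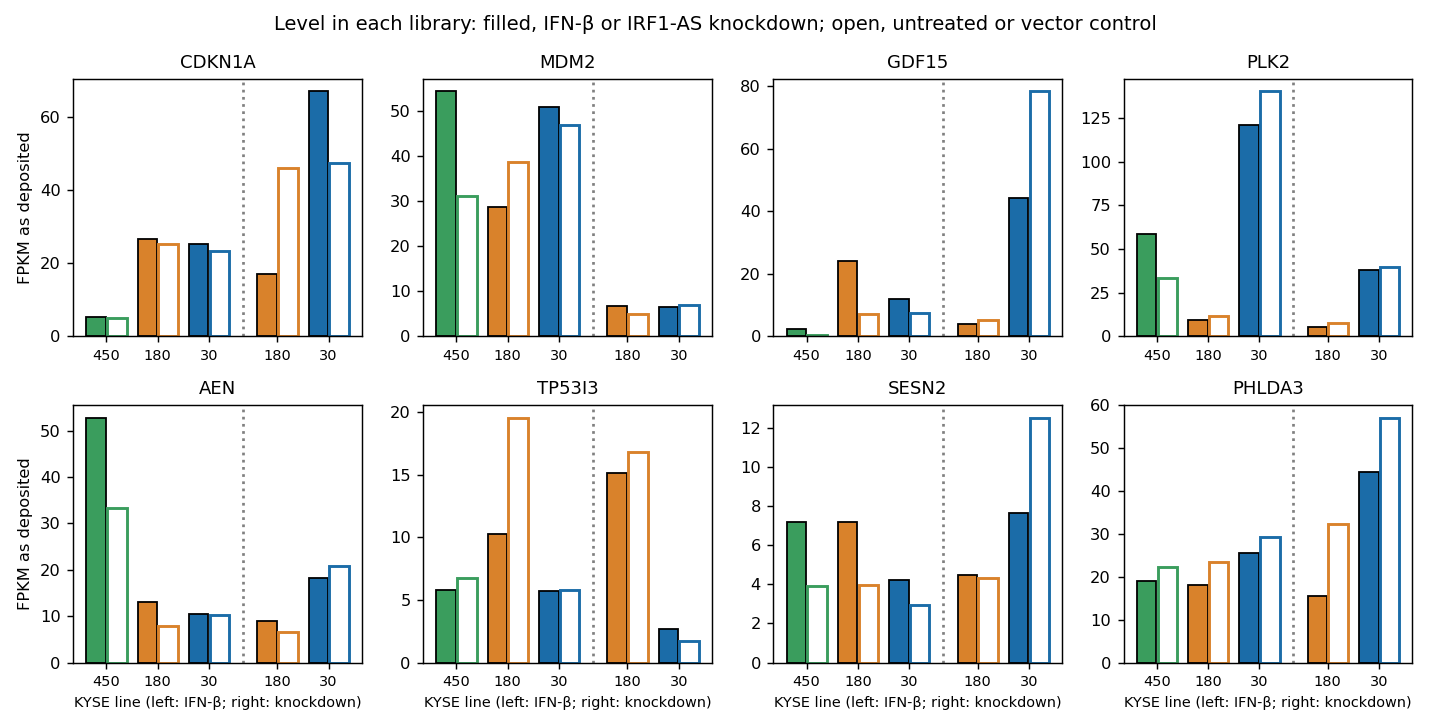
Deposited FPKM of 8 p53 pathway genes in each library (bars start at 0; no replicate within a line and condition), with filled bars for IFN-β or IRF1-AS knockdown, open bars for untreated or vector control, and a dotted line between the separately normalised experiments. CDKN1A was near 5 FPKM in both KYSE450 libraries, PLK2 was highest in KYSE30 of the first experiment, and GDF15 was higher in the IFN-β library of each line.

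Whether IFN-β raised the p53 program was read from the first experiment, in 27 members that passed the filter of 1 FPKM in at least 3 libraries. No member passed the test after IFN-β. By value, GDF15, SESN2 and GADD45A were higher in every line and DDB2, TP53INP1, PHLDA3 and TP53I3 were lower in every line, while CDKN1A and MDM2, the genes most often used to read p53 activity, showed no common direction. In bulk libraries, a lower level in each cell and fewer expressing cells cannot be told apart. The test, limma on scaled log2(FPKM + 1) blocked by cell line with Benjamini-Hochberg adjustment, called 0 of the 27 members at an adjusted p of 0.05, against 0.402% of all 12428 genes tested (50 genes, all higher). At an unadjusted p of 0.05 it separated 7 of the 27, against 9.81% of all genes: 3 higher (4.47% of all genes) and 4 lower (5.34% of all genes). The members' median log2 difference was -0.05, against -0.01 over all genes, and their range was -0.51 to 1.11. For 26 of the 27 the spread in the test drew on the full prior shared across genes, worth 4.19 degrees of freedom beside 2 of the gene's own.

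Values in KYSE450 need care, because its deposited FPKM were shifted as a whole. The median tested gene was 0.41 higher on the log2 scale in its IFN-β library than in its untreated library, against -0.02 in KYSE180 and -0.01 in KYSE30, and the scaling used here brought this to -0.01, 0.00083 and -0.01. FPKM are given below as deposited and log2 differences after scaling, so a KYSE450 gene can be higher in FPKM and lower in the scaled difference.

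Among the feedback regulators, MDM2, the ubiquitin ligase that degrades p53, had 54.3 FPKM in IFN-β-treated and 31.1 in untreated KYSE450, 28.6 and 38.7 in IFN-β-treated and untreated KYSE180, and 50.7 and 46.9 in IFN-β-treated and untreated KYSE30. It was thus lower in KYSE180 and higher in the other lines, and its fitted log2 difference was 0.01 (95% confidence interval -0.38 to 0.39; adjusted p = 0.993, limma). MDM4, which binds p53 and blocks its activity, was higher in each line, by 0.53 on the log2 scale in KYSE450, by 0.28 in KYSE180 and by 0.14 in KYSE30 (fitted 0.32 ± 0.13, adjusted p = 0.512). PPM1D, the phosphatase that resets the damage response, was also higher in each line, by 0.10 to 0.22, and CCNG1, which encodes cyclin G1, was lower in KYSE450 and KYSE30 and higher in KYSE180.

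Among the growth arrest genes, CDKN1A, which encodes the cyclin-dependent kinase inhibitor p21, differed little within a line by FPKM. It had 5.15 FPKM in IFN-β-treated and 4.91 in untreated KYSE450, 26.6 and 25.2 in IFN-β-treated and untreated KYSE180, and 25.4 and 23.4 in IFN-β-treated and untreated KYSE30. The fitted log2 difference was -0.05 (95% confidence interval -0.40 to 0.30; adjusted p = 0.915, limma), and its sign changed to 0.08 without the scaling and to 0.11 without KYSE450. GADD45A, a growth arrest and DNA damage-inducible gene, had 31.8 FPKM in IFN-β-treated and 15.4 in untreated KYSE450, 20.1 and 13.2 in IFN-β-treated and untreated KYSE180, and 19.9 and 16.4 in IFN-β-treated and untreated KYSE30. Each line's IFN-β library was above its untreated one, and the fitted log2 difference was 0.46 ± 0.12 (SE, n = 3 lines; adjusted p = 0.386, limma). After scaling, the IFN-β-treated libraries, at 18.6 to 27.7 FPKM, overlapped the untreated libraries, at 12 to 19.0 FPKM. The antiproliferative gene BTG2 and the polo-like kinase genes PLK2 and PLK3 had differences of -0.47 to 0.32 in single lines and no common direction.

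GDF15 was the member with the largest difference. It encodes a secreted stress cytokine, and it had 2.18 FPKM in IFN-β-treated and 0.32 in untreated KYSE450, 24.0 and 7.10 in IFN-β-treated and untreated KYSE180, and 12 and 7.46 in IFN-β-treated and untreated KYSE30. It was higher in all 3 lines, though the treated KYSE450 library lay below the untreated libraries of both other lines. The fitted log2 difference was 1.11 ± 0.21 (SE, n = 3 lines; 95% confidence interval 0.59 to 1.62; adjusted p = 0.179, limma), and on the values as deposited, without scaling, it was 1.17 and passed the test. SESN2, a sestrin that restrains mTORC1 signalling, had 7.17 FPKM in IFN-β-treated and 3.93 in untreated KYSE450, 7.17 and 3.97 in IFN-β-treated and untreated KYSE180, and 4.22 and 2.92 in IFN-β-treated and untreated KYSE30. It too was higher in every line (0.49 ± 0.15, adjusted p = 0.447, limma), while SESN1, the other sestrin, was lower in KYSE450 and higher in KYSE180 and KYSE30.

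Opposite values stood in the same role group. TP53INP1, a stress-induced p53 cofactor, had 0.79 FPKM in IFN-β-treated and 0.93 in untreated KYSE450, 5.59 and 10.96 in IFN-β-treated and untreated KYSE180, and 2.65 and 3.62 in IFN-β-treated and untreated KYSE30. TP53I3, a quinone oxidoreductase, had 5.82 FPKM in IFN-β-treated and 6.77 in untreated KYSE450, 10.2 and 19.6 in IFN-β-treated and untreated KYSE180, and 5.70 and 5.83 in IFN-β-treated and untreated KYSE30. Both were lower in every line, and for TP53I3 the difference in KYSE30 was small. PHLDA3, a repressor of AKT signalling, had 19.0 FPKM in IFN-β-treated and 22.3 in untreated KYSE450, 18.1 and 23.5 in IFN-β-treated and untreated KYSE180, and 25.5 and 29.4 in IFN-β-treated and untreated KYSE30. The fitted log2 differences were -0.51 ± 0.16 for TP53INP1, -0.50 ± 0.18 for TP53I3 and -0.41 ± 0.14 for PHLDA3, with adjusted p between 0.451 and 0.497 in limma. FDXR, which encodes ferredoxin reductase, was lower by 0.04 to 0.33.

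The 4 members that serve DNA repair and nucleotide supply all had negative fitted differences, where 47.4% of all genes had a positive one. Of the 4 members, 3 were lower in every line, against 19% of all genes. DDB2, a damage sensor of nucleotide excision repair, had 29.9 FPKM in IFN-β-treated and 29.9 in untreated KYSE450, 44.2 and 65.9 in IFN-β-treated and untreated KYSE180, and 32.8 and 34.6 in IFN-β-treated and untreated KYSE30 (-0.37 ± 0.13 after scaling, adjusted p = 0.497, limma). RRM2B, the p53-inducible subunit of ribonucleotide reductase, was at -0.27 ± 0.13, XPC, which recognises helix-distorting damage, at -0.10 ± 0.12, and the bypass polymerase gene POLH at -0.05 ± 0.13. Without scaling, XPC (0.03) and POLH (0.08) were positive, and DDB2 (-0.21) and RRM2B (-0.13) stayed negative.

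Among the genes of cell death, survival and autophagy, the death receptor gene FAS was 0.64 higher in KYSE30, 0.29 higher in KYSE450 and level in KYSE180 (0.01), and the exonuclease gene AEN, which acts in apoptosis, was 0.68 higher in KYSE180 and within 0.16 in the other lines. ZMAT3, TRIAP1, DRAM1, BLOC1S2 and ACER2 had fitted differences between -0.21 and 0.12. CYFIP2, EDA2R and SPATA18 did not pass the filter: CYFIP2 lay between 0.13 and 2.53 FPKM, EDA2R had 0.80 and 0.78 FPKM in IFN-β-treated and untreated KYSE30 and was listed at 0 in the other lines, and SPATA18 reached 1.58 FPKM in IFN-β-treated and 0.42 FPKM in untreated KYSE450. In all, 7 members (25.9%) were higher in every line, against 16.8% of all genes, and 8 members (29.6%) were lower in every line, against 19% of all genes. Within single lines, differences of at least 1.5-fold were read against the share of all genes past that size in the same line. In KYSE450 GDF15 was that much higher (6% of all genes) and PHLDA3 and TP53I3 lower (6.21%). In KYSE180 GDF15, SESN2, AEN and GADD45A were that much higher (14.8% of members, against 6.68% of all genes) and TP53INP1 and TP53I3 lower (7.41%, against 9.22%). In KYSE30 GDF15 and FAS were that much higher (7.41%, against 2.77%) and 0 members lower (1.27% of all genes).

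**Figure D2:**
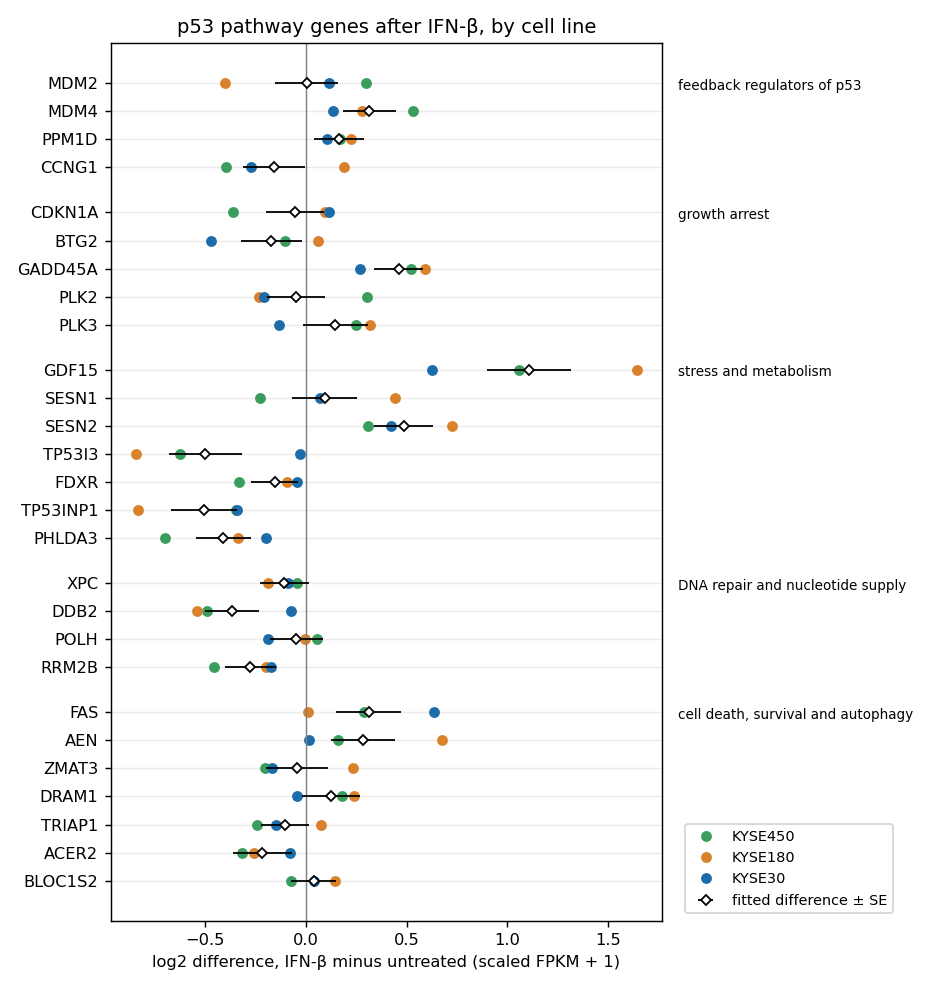
Log2 difference, IFN-β minus untreated, of the 27 tested p53 pathway genes on the scaled log2(FPKM + 1) scale, grouped by role, with a point for each cell line and a diamond with SE for the fit. GDF15 lies farthest to the right at 1.11, and the points of CDKN1A and MDM2 fall on both sides of 0.

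The same fit compared the lines across both treatments. In these contrasts the p-values measure the spread between a line's treated and untreated library after an additive treatment effect. KYSE450 had lower levels of many p53 targets than the other lines. Of the 27 members, 16 were called lower and 3 higher in KYSE450 than in KYSE180, which is 59.3% and 11.1% of members against 24.7% and 24.5% of all genes tested (49.1% in either direction). Against KYSE30, 13 were called lower and 1 higher, 48.1% and 3.7% of members against 23.8% and 22.8% of all genes (46.6% in either direction). Without the IFN-β-treated KYSE450 library, the calls in either direction came to 11 and 8, against 19 and 14 with it, and without either KYSE30 library the contrast with KYSE30 gave 9. Calls over all genes fell as well. In the contrast with KYSE180 they came to 4000 without the IFN-β-treated KYSE450 library, against 6107 with it. In the contrast with KYSE30 they came to 2898 without the IFN-β-treated KYSE30 library, against 5793 with it. After scaling, both KYSE450 libraries lay below the other 4 for 12 members (44.4%, against 22.2% of all genes) and above them for 1, AEN (3.7%, against 22.3%). Both KYSE180 libraries lay above the other 4 for 11 members, all 4 repair genes among them (40.7%, against 21.6%), and below for 3 (11.1%, against 21.7%). Both KYSE30 libraries lay above for 8 (29.6%, against 21.9%) and below for 1, CCNG1 (3.7%, against 21.2%).

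GDF15, CDKN1A and TP53INP1 were far lower in KYSE450. GDF15 was 2.70 ± 0.26 lower on the log2 scale than in KYSE180 and 2.46 ± 0.26 lower than in KYSE30 (adjusted p = 0.000758 and 0.00104, limma). CDKN1A averaged 5.03 ± 0.17 FPKM in KYSE450, 25.9 ± 0.919 in KYSE180 and 24.4 ± 1.38 in KYSE30 (SD, n = 2 libraries each), and the 2 KYSE450 libraries lay far below the 4 others. Its log2 difference was -1.99 ± 0.18 from KYSE180 and -2.11 ± 0.18 from KYSE30 (adjusted p = 0.000589 and 0.000472, limma), and the 95% confidence interval of the difference between KYSE180 and KYSE30 was -0.55 to 0.31. TP53INP1, with 0.79 and 0.93 FPKM in the KYSE450 libraries, was 2.11 ± 0.20 lower than in KYSE180 and 1.17 ± 0.20 lower than in KYSE30. BTG2, MDM4 and SESN1 were called lower than in both other lines, by 0.70 to 1.27, as were ZMAT3, an RNA-binding p53 target, the ceramidase gene ACER2 and POLH, by 0.50 to 1.20.

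AEN went the other way. It had 52.8 and 33.4 FPKM in IFN-β-treated and untreated KYSE450, against 13.0 and 7.87 FPKM in IFN-β-treated and untreated KYSE180 and 10.4 and 10.3 FPKM in IFN-β-treated and untreated KYSE30. Its log2 difference was 2.12 ± 0.20 from KYSE180 and 1.89 ± 0.20 from KYSE30 (adjusted p = 0.000667 and 0.000913, limma). MDM2, also a p53 target, did not differ from either line past the threshold in KYSE450 (0.47 ± 0.19 from KYSE180, adjusted p = 0.0866; -0.27 ± 0.19 from KYSE30, adjusted p = 0.288). All 4 repair members were called lower in KYSE450 than in KYSE180, by 0.59 to 0.87, and POLH alone of them was called lower than in KYSE30.

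**Figure D3:**
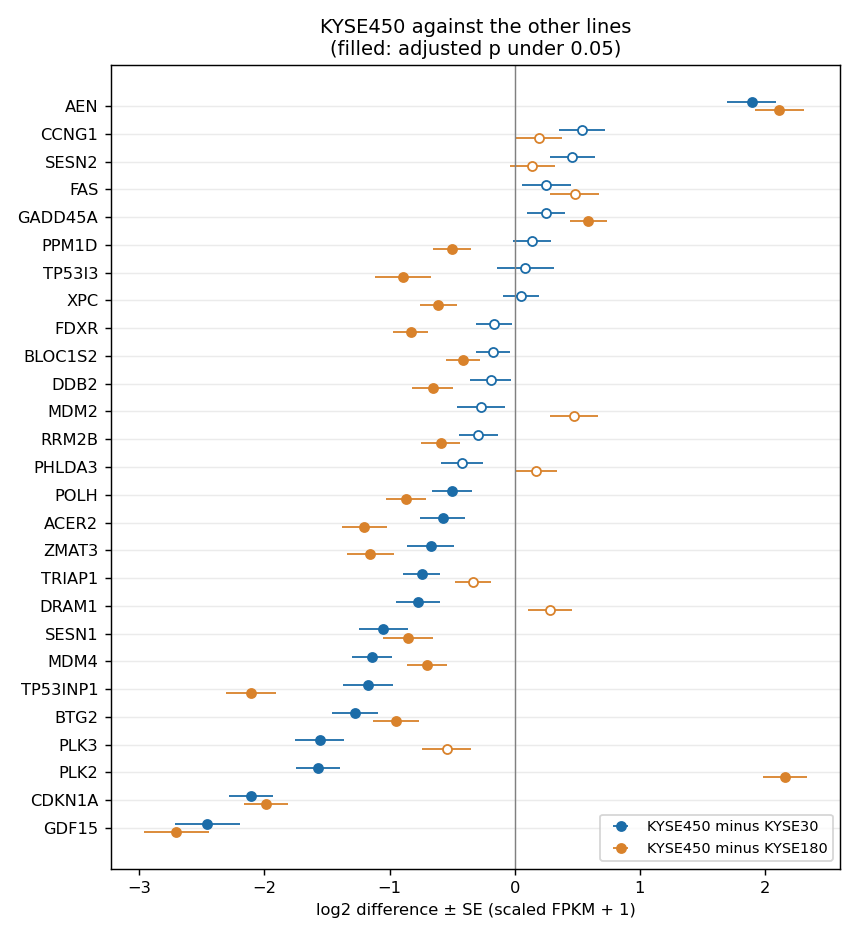
Log2 difference (± SE, scaled log2(FPKM + 1)) of each tested p53 pathway gene in KYSE450 against KYSE30 and against KYSE180, ordered by the contrast with KYSE30, with filled points for an adjusted p under 0.05. AEN stands at the top at 1.89 and 2.12, GDF15 and CDKN1A at the bottom near -2 or below, and PLK2 lies on opposite sides of 0 in the contrasts.

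Between KYSE180 and KYSE30 the calls were near the background. Of the 27 members, 11 were called (40.7%, against 45.7% of all genes), 6 higher and 5 lower in KYSE180 (22.4% and 23.3% of all genes), and without the untreated KYSE30 library 1 call was left, without the IFN-β-treated KYSE30 library 5. Calls over all genes fell too, to 2900 without the IFN-β-treated KYSE30 library, against 5677 with it. PLK2, a polo-like kinase gene induced by p53, had the largest difference among the members. It had 58.4 and 33.4 FPKM in IFN-β-treated and untreated KYSE450, 9.38 and 11.4 FPKM in IFN-β-treated and untreated KYSE180, and 121 and 140.4 FPKM in IFN-β-treated and untreated KYSE30. The lines did not overlap, and KYSE180 was 3.73 ± 0.18 below KYSE30 (adjusted p = 9.65e-05, limma) while KYSE450 was 2.16 ± 0.18 above KYSE180 and 1.57 ± 0.18 below KYSE30. Also lower in KYSE180 than in KYSE30 were the autophagy gene DRAM1 (-1.06 ± 0.18), PLK3 (-1.02 ± 0.20), MDM2 (-0.74 ± 0.19) and PHLDA3 (-0.59 ± 0.17). TP53I3 (0.98 ± 0.22), TP53INP1 (0.94 ± 0.20), FDXR and XPC (0.66 each), PPM1D (0.64 ± 0.15) and ACER2 (0.63 ± 0.18) were higher, and FDXR had 42.6 and 46.2 FPKM in IFN-β-treated and untreated KYSE180, above the 20.4 to 24.2 FPKM of the other lines.

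The contrast of KYSE180 with KYSE30 could be set beside the same contrast in the 4 libraries of the knockdown experiment. There 8 of 28 tested members were called (28.6%, against 28.7% of all 12813 genes), 7 lower and 1 higher in KYSE180 (13.8% and 14.9% of all genes). PLK2 (-2.53 ± 0.21), PLK3 (-2.59 ± 0.26), PHLDA3 (-1.21 ± 0.22) and TP53I3 (2.34 ± 0.24) had the same direction and passed the test in both experiments. The other members called in the IFN-β experiment did not pass here. MDM2, TP53INP1, FDXR, PPM1D, DRAM1 and ACER2 kept their direction (adjusted p = 0.0757 to 0.633, limma), and XPC was at -0.03 ± 0.23. The share of all genes that passed in both experiments was not counted. GDF15 did not have the same sign in both. It was 0.25 ± 0.26 higher in KYSE180 than in KYSE30 in the IFN-β experiment (adjusted p = 0.462, limma). In the knockdown experiment it was 3.54 ± 0.22 lower (adjusted p = 0.00127, limma). Its levels were 3.82 and 5.07 FPKM in knockdown and vector control KYSE180 and 44.3 and 78.4 FPKM in knockdown and vector control KYSE30, so KYSE30 was far higher there. SESN2, AEN and GADD45A were called lower in KYSE180 than in KYSE30 in the knockdown experiment (-1.07 to -1.30) and not in the IFN-β experiment, and the difference between experiments was not tested. Levels cannot be compared across the experiments, in which MDM2, for instance, lay at 28.6 to 54.3 FPKM and at 4.86 to 6.90 FPKM.

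**Figure D4:**
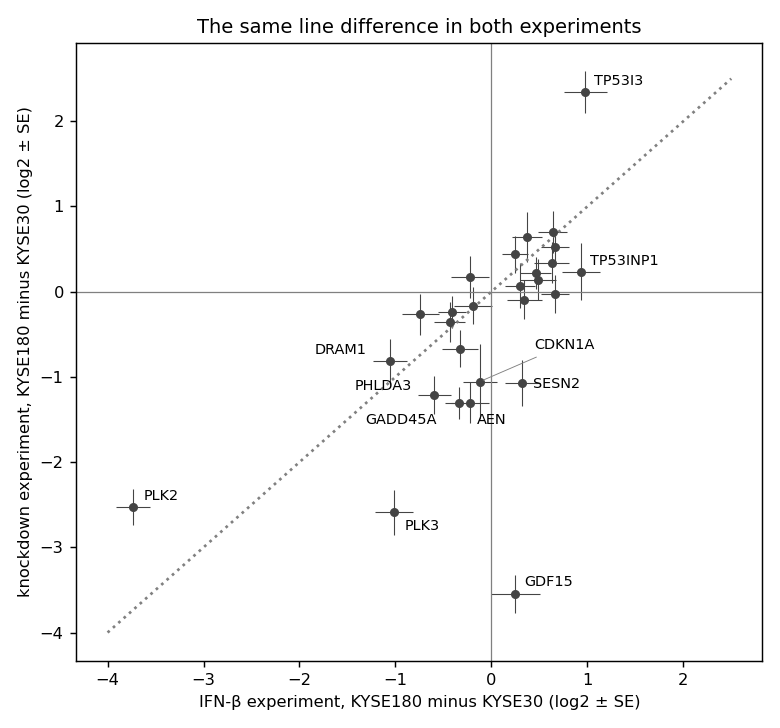
Log2 difference (± SE) between KYSE180 and KYSE30 of each p53 pathway gene tested in both experiments, in the IFN-β experiment (horizontal) and in the knockdown experiment (vertical), with equality as a dotted line. PLK2, PLK3 and DRAM1 lie lower in KYSE180 and TP53I3 higher in both, and GDF15 stands apart at 0.25 and -3.54.

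Knockdown of IRF1-AS gave no call in the p53 pathway genes. Of the 28 tested members 0 passed, as did 0% of all 12813 genes, and at an unadjusted p of 0.05 limma separated 3 of the 28, all lower, against 4.65% of all genes lower and 1.92% higher (842 genes, 6.57%, in either direction). The 3 were PHLDA3, BTG2 and GDF15. PHLDA3 had 15.5 FPKM in knockdown and 32.3 in vector control KYSE180, and 44.5 and 57.2 in knockdown and vector control KYSE30 (-0.71 ± 0.22, SE, n = 2 lines; adjusted p = 0.743, limma). BTG2 had 5.72 FPKM in knockdown and 8.25 in vector control KYSE180, and 8.32 and 14.3 in knockdown and vector control KYSE30 (-0.61 ± 0.21, adjusted p = 0.744, limma). GDF15, with the levels given above, was 0.33 lower in KYSE180 and 0.86 lower in KYSE30 (-0.60 ± 0.22, adjusted p = 0.747, limma). All 3 were lower in both lines, and the knockdown and vector libraries overlapped across lines.

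CDKN1A moved in opposite directions. It had 17.1 FPKM in knockdown and 46.1 in vector control KYSE180, a log2 difference of -1.37, and 67.2 in knockdown and 47.4 in vector control KYSE30, a difference of 0.44. The fit gave -0.47 ± 0.44 (95% confidence interval -1.58 to 0.65; adjusted p = 0.868, limma). MDM2 differed by 0.41 in KYSE180 and -0.11 in KYSE30, with 6.76 and 4.86 FPKM in knockdown and vector control KYSE180 and 6.56 and 6.90 FPKM in knockdown and vector control KYSE30. TRIAP1, an inhibitor of apoptosis, was the 1 member higher in both lines (0.15 and 0.20; 3.57% of members, against 24.6% of all genes), and BLOC1S2 was 0.52 higher in KYSE30 and 0.02 lower in KYSE180.

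In all, 10 members were lower in both lines (35.7%, against 27.8% of all genes). Beside the 3 above they were SESN1, RRM2B, FDXR, GADD45A, DDB2, PLK2 and DRAM1, with fitted differences of -0.07 to -0.66. SESN1 had 3.98 and 6.42 FPKM in knockdown and vector control KYSE180 and 4.57 and 6.59 FPKM in knockdown and vector control KYSE30. Its knockdown libraries both lay below its vector libraries (-0.53 ± 0.22, adjusted p = 0.771, limma). By role, all 5 growth arrest members and 6 of 7 stress and metabolism members had negative fitted differences, as did 3 of 4 repair members and 1 of 4 feedback regulators. Over all genes 48.1% had a positive one, and the difference between roles was not tested. The members' median was -0.12, against -0.01 over all genes. At least 1.5-fold lower were CDKN1A and PHLDA3 in KYSE180 (7.14% of members, against 7.85% of all genes) and GDF15, SESN2, TP53INP1, RRM2B, BTG2, CYFIP2 and DRAM1 in KYSE30 (25%, against 11.6%). No member was that much higher in either line (5.61% of all genes in KYSE180, 6.36% in KYSE30). EDA2R and SPATA18 did not pass the filter and were at or below 0.113 FPKM.

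**Figure D5:**
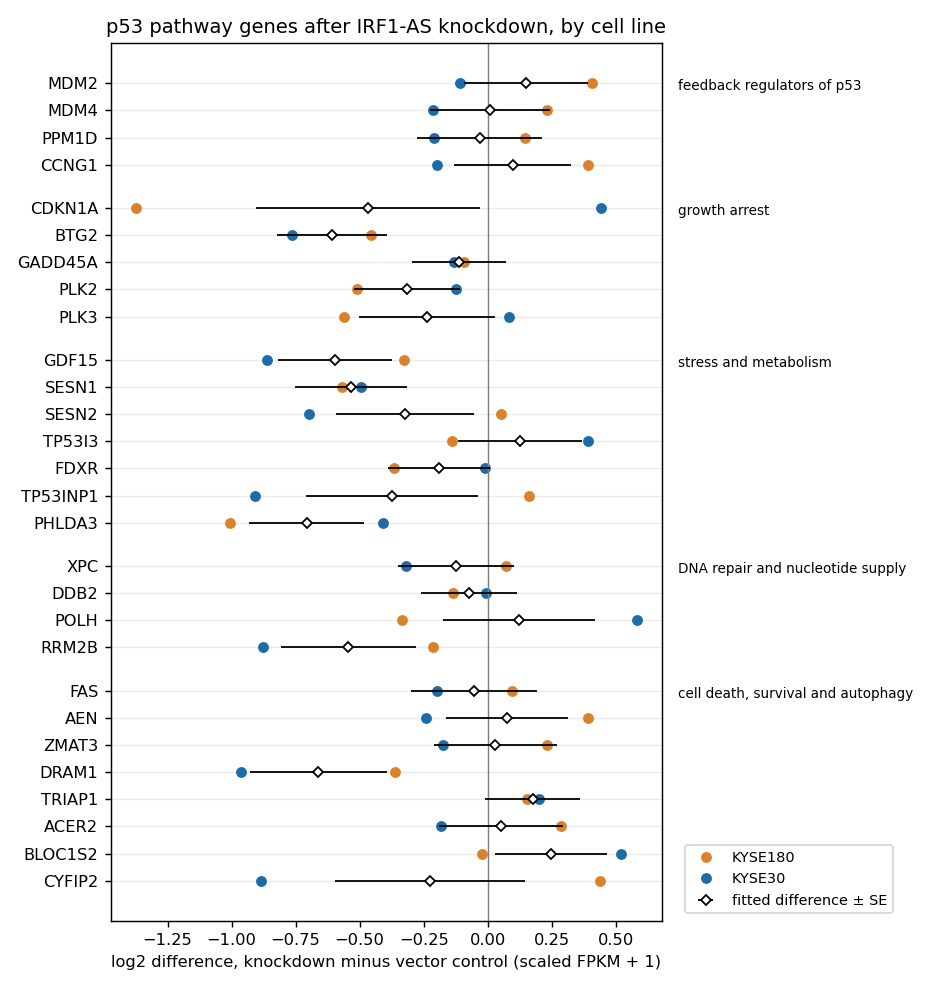
Log2 difference, IRF1-AS knockdown minus vector control, of the 28 tested p53 pathway genes (scaled log2(FPKM + 1)), grouped by role, with a point for each line and a diamond with SE for the fit. CDKN1A has the widest gap between lines, -1.37 in KYSE180 and 0.44 in KYSE30, and all growth arrest diamonds lie left of 0.

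Other genes were read from 5 lists: upstream regulators of p53, apoptosis targets, other targets, genes that p53 lowers, and integrated stress response genes. After IFN-β no gene of these lists was called. Of the upstream regulators, 3 had an unadjusted p under 0.05, all lower (5.34% of all genes): RPL5 (-0.66 ± 0.14) and RPL11 (-0.37 ± 0.15), ribosomal proteins that bind MDM2, and the ubiquitin ligase gene COP1 (-0.30 ± 0.12). Of 12 tested apoptosis targets 3 were higher and 2 lower at that level, against 4.47% and 5.34% of all genes, among them PMAIP1, which encodes the BH3-only protein NOXA (0.85 ± 0.17, adjusted p = 0.183), the TRAIL receptor genes TNFRSF10A (0.47 ± 0.13) and TNFRSF10B (0.46 ± 0.13), and the decoy receptor gene TNFRSF10D (-1.41 ± 0.43). PMAIP1 had 10.5 FPKM in IFN-β-treated and 4.69 in untreated KYSE450, 14.4 and 5.54 in IFN-β-treated and untreated KYSE180, and 17.7 and 10.5 in IFN-β-treated and untreated KYSE30, so it was higher in every line. Of 17 other tested targets, SCO2, a cytochrome oxidase assembly factor, was higher (0.57 ± 0.12, adjusted p = 0.252) and IGFBP3 lower (-0.96 ± 0.36) at an unadjusted p under 0.05. Genes that p53 lowers through p21 and the DREAM complex had a median of -0.02 over 17 genes, with E2F1 (0.55 ± 0.18) and FOXM1 (0.51 ± 0.20) higher at that level.

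The integrated stress response, the pathway that also reaches GDF15, SESN2 and GADD45A, had 11 of 12 genes higher by value after IFN-β and a median of 0.54, against -0.01 over all genes. At an unadjusted p under 0.05 limma separated 7 of the 12, all higher, against 4.47% of all genes, and called none. They included ASNS, which makes asparagine (0.63 ± 0.11, adjusted p = 0.148, limma), the transcription factor genes ATF3 (0.80 ± 0.18) and DDIT3 (1.01 ± 0.30), the serine synthesis gene PSAT1 (0.51 ± 0.11) and the pseudokinase gene TRIB3 (0.67 ± 0.17). After knockdown the same list had 0 of 12 genes higher and a median of -0.55, against -0.01 over all genes. There DDIT4, an inhibitor of mTORC1 (-1.27 ± 0.23, adjusted p = 0.608), XBP1 (-0.89 ± 0.22), DDIT3 (-1.02 ± 0.33) and PPP1R15A (-0.58 ± 0.20) had the smallest p, and limma called none. Whether these genes and GDF15 share a cause was not tested.

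After knockdown, the p53 relative TP63 differed by -0.56 ± 0.19 (adjusted p = 0.743, limma). Among 13 apoptosis targets the decoy receptor gene TNFRSF10D was at 0.65 ± 0.20 and PMAIP1 at -0.81 ± 0.27, the 1 higher and the 1 lower at an unadjusted p under 0.05, against 1.92% and 4.65% of all genes. Among 18 other targets 3 were lower at that level, against 4.65% of all genes: TNFAIP8 (-0.82 ± 0.21), IGFBP3 (-1.70 ± 0.57) and TP53INP2 (-0.71 ± 0.27). Of the 17 genes lowered through DREAM, 15 were higher by value, with a median of 0.19 and 0 past an unadjusted p of 0.05. IRF1 had 1.20 and 1.83 FPKM in knockdown and vector control KYSE180 and 5.88 and 31.1 FPKM in knockdown and vector control KYSE30 (-1.32 ± 0.47, adjusted p = 0.747).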

How the data were processed

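RNA of 10 cell line libraries was sequenced after standard Illumina preparation, per the labels' protocols, and the authors deposited FPKM (fragments per kilobase, scaled to library size), per the file headers. TopHat, HTSeq and hg38 are named in the submitters' processing notes. Versions, annotation, strand setting and depth were not given there, so overlapping antisense transcripts cannot be told apart. The experiments were normalised and tested separately. Non-coding transcripts were added up by gene, as were 946 alternate copies.

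Libraries were scaled by the median of ratios within an experiment. Genes at 1 FPKM in at least 3 (IFN-β) or 2 (knockdown) libraries were fitted as log2(FPKM + 1), which understates changes of low genes, with limma 3.58.1 (trend, robust) in R 4.3.3, line and treatment as terms, and Benjamini-Hochberg adjustment over all genes at 0.05. The test was also run on simulated data with an equal spread for all genes and the same change in every line. That setting is simpler than these data and does not give the error rate here. Pairs come from the cell line label, and paired deviations correlated at 0.841 to 0.910. Read-count tests were not run, since the files hold FPKM. Members, lists and tests were chosen with earlier results of these data known. Named members are CDKN1A, MDM2 and GDF15, every member called, the 6 largest differences after IFN-β, the 5 largest called in each line contrast and the 3 smallest p in each direction after knockdown, with up to 4 genes of smallest p from each other list, plus IRF1 and its antisense gene. Items withheld from this text are not reported here. The rest are given by level, direction or range. Promoters come from RefSeq (GRCh38.p14). Alternatives varied the scaling, pseudocount, filter, robust option, block and libraries.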

Additional observations from a re-analysis of the deposited data

Results flagged for a closer look

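After knockdown of IRF1-AS, 3 members differed by at least 1.25-fold in opposite directions in the 2 lines. CDKN1A was at a log2 difference of -1.37 in KYSE180 and 0.44 in KYSE30. POLH was at -0.34 in KYSE180 and 0.58 in KYSE30, with 6.46 and 8.45 FPKM in knockdown and vector control KYSE180 and 5.38 and 3.14 FPKM in knockdown and vector control KYSE30. CYFIP2, whose product binds the WAVE complex, was at 0.44 in KYSE180 and -0.89 in KYSE30, with 3.25 and 2.14 FPKM in knockdown and vector control KYSE180 and 0.417 and 1.55 FPKM in knockdown and vector control KYSE30. With 1 library per line and condition, none of these differences between lines was tested. After scaling, no member did so after IFN-β. On the values as deposited, the ratio of IFN-β-treated to untreated FPKM was 1.75 for MDM2 in KYSE450 and 0.739 in KYSE180, and 1.29 for BTG2 in KYSE450 and 0.70 in KYSE30.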

How the results depend on the processing

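Depth is unknown and the design is small: with 3 and 2 lines, the spread in the tests is mostly borrowed from other genes, and 1 library often decides a count. After IFN-β the genes called in all, 50, came to 237 on the values as deposited, 13 without the filter and 27 to 70 without a line, and the members called, 0, to 1 (GDF15) as deposited and 0 without any line. With no replicate block, that is without the cell line pairing, 13 genes and 0 members were called after IFN-β and 0 of either after knockdown. CDKN1A after IFN-β turned to 0.079 as deposited and lay between -0.13 and 0.11 without a line, and MDM2 between -0.14 and 0.22. For KYSE180 minus KYSE30, leaving out libraries gave 2900 to 5572 genes and 1 to 11 members, and an average of 5 FPKM gave 7 members. XPC turned to -0.028 in the knockdown libraries. For KYSE450 minus KYSE30 leaving out libraries gave 2898 to 6548 genes and 8 to 16 members, and an average of 5 FPKM 9 members. For KYSE450 minus KYSE180 it gave 4000 to 5576 genes and 11 to 17 members. For KYSE180 minus KYSE30 in the knockdown experiment, no filter gave 1069 genes and 5 members, and an average of 5 FPKM 2399 genes. In both KYSE450 contrasts, the calls of AEN, BTG2, CDKN1A, GDF15 and PLK2 held under every alternative run. So did FDXR and POLH against KYSE180 and MDM4 against KYSE30. TP53INP1 in both contrasts, ACER2 and ZMAT3 against KYSE180 and PLK3 against KYSE30 held in every run that fitted them. At an average of 5 FPKM these genes were not fitted, and TP53INP1 and ACER2 also lacked a run without 1 line. In KYSE180 minus KYSE30 the call of PLK2 held under every alternative run. For that contrast in the knockdown experiment, GADD45A, GDF15, PLK2, PLK3 and TP53I3 held in the runs that had a test. Of the log2 differences under the alternatives, 104 kept their direction and lost the threshold, and 1 gained it. Another 5 changed direction, and 7 shifted past their spread in runs without a test. The other 654 were counted as unchanged. In runs without a test that count rested on the size of the shift, so some of the 654 changed direction. Without a line, CDKN1A after knockdown was at -1.37 and 0.45, against the fitted -0.47. The causes were not tested. In the knockdown experiment, leaving out a line or a single library leaves no residual degrees of freedom, so those values have no test.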

Other observations

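The lists around p53 also differed between the lines. TP63, the p53 relative that marks squamous cells, averaged 81.8 FPKM in KYSE450, 109 FPKM in KYSE180 and 27.2 FPKM in KYSE30 of the first experiment, and was 1.52 ± 0.17 higher on the log2 scale in KYSE450 and 1.74 ± 0.17 higher in KYSE180 than in KYSE30 (adjusted p = 0.00126 and 0.000788, limma). In the knockdown experiment KYSE180 differed from KYSE30 by 0.24 ± 0.19 (adjusted p = 0.38, limma). Of 12 integrated stress response genes, 8 were called higher and 0 lower in KYSE450 than in KYSE30, against 22.8% and 23.8% of all genes, and 2 were called higher and 3 lower in KYSE450 than in KYSE180, against 24.5% and 24.7% of all genes.

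Of 17 genes that p53 lowers through p21 and DREAM, 6 were called higher and 1 lower in KYSE450 than in KYSE180, against 24.5% and 24.7% of all genes, and 1 was called higher and 8 lower in KYSE180 than in KYSE30, against 22.4% and 23.3% of all genes. Between KYSE450 and KYSE30, 2 were called higher and 2 lower, against 22.8% and 23.8% of all genes. The lower calls in KYSE180 than in KYSE30 did not recur in the knockdown experiment. There 4 were called higher and 0 lower in KYSE180, against 14.9% and 13.8% of all genes. The median log2 difference of the 17 genes was -0.34 in the IFN-β experiment and -0.10 in the knockdown experiment.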
